A study of Mus musculus with 9 samples.

Results

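The genes described here encode the nuclear-encoded subunits of mitochondrial complex III and its electron acceptor, cytochrome c. They were chosen by symbol: Uqcrc1, Uqcrc2, Uqcrfs1, Uqcrb, Uqcrq, Uqcrh, Uqcr10, Uqcr11 and Cyc1 for the complex, and Cycs for cytochrome c. All 10 symbols were found among the 23457 rows of the count table and in the FPKM table, and all 10 passed the filter on low counts, which left 12640 genes to test. The mitochondrially encoded subunit mt-Cytb was read beside them by its gene identifier.

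Complex III, the cytochrome bc1 complex, takes electrons from ubiquinol and hands them to cytochrome c while it moves protons out of the mitochondrial matrix. Cytochrome b, cytochrome c1 and the Rieske iron-sulfur protein carry the redox centres, a pair of large core proteins faces the matrix, and small subunits surround them. Only cytochrome b is encoded in mitochondrial DNA, so building the complex needs transcripts from both genomes. The heart, which depends on oxidative phosphorylation, holds these transcripts at high levels.

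The study sequenced polyadenylated RNA of hearts from 5 wild-type mice and 4 mice labelled as carrying a germline knockout of Parkin, a ubiquitin ligase known for marking damaged mitochondria for removal. All mice were adults on the C57BL/6J background, and no other allele or treatment is given for either group. The RNA came from the frozen apex of the ventricles, although the tissue label names the whole heart, and the libraries were single-end and did not keep strand. The knockout was germline, so every cell type of the heart is labelled as lacking the gene. The transcript of the targeted gene is not reported here, so directions below rest on the labels. No label gives sex, litter, date or batch, so p-values measure the spread between these hearts.

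Library depth ran from 4415183 to 20827699 assigned reads in wild type, where hearts 2 and 3 were the shallowest, and from 11637206 to 15777844 in the labelled knockouts. Mitochondrially encoded genes took 47.0% ± 11.3 of reads (SD, n = 5, range 32.6 to 58.2) in wild type and 13.3% ± 2.49 (SD, n = 4, range 10.04 to 15.4) in the labelled knockouts. The GC content of a transcript was related to its level differently in the groups. The slope of log2 deviation on GC content lay between -0.40 and -0.19 per 10 percentage points in wild type and between 0.17 and 0.65 in the labelled knockouts, so that GC trend and genotype cannot be told apart. Tests of the chosen genes, of mt-Cytb and of the assembly and electron donor genes are therefore given in 2 fits. These are edgeR on the counts and a corrected fit in which each heart's trend in GC content and length is taken out. Marker levels and calls, correlations between genes and FPKM are given without the correction. The corrected fit also loses any biological difference that follows those properties.

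GC content differs widely among these genes, from 40.8% in the Cycs transcript and 42.2% in Uqcrb to 58.9% in Uqcr11. The first 150 coding bases of Uqcrb and Uqcr11, the genes with the largest fall and the largest rise in the edgeR fit, show the contrast. In the corrected fit Uqcrb is again lowest, and Uqcrq and Cycs lie above Uqcr11. Both are read 5′ to 3′ from GENCODE transcripts on GRCm38, with G and C in capitals. The Uqcrb stretch spans introns between chr13:66901510-66905311 on the minus strand, is 42.7% G and C and belongs to a coding sequence of 336 bases. The Uqcr11 stretch spans introns between chr10:80404187-80406745 on the minus strand, is 64% G and C and belongs to a coding sequence of 171 bases.
Uqcrb: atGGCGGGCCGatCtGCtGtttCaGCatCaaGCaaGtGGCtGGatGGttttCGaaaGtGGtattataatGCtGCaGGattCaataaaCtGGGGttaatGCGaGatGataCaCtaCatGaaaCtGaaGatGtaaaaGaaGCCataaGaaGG
Uqcr11: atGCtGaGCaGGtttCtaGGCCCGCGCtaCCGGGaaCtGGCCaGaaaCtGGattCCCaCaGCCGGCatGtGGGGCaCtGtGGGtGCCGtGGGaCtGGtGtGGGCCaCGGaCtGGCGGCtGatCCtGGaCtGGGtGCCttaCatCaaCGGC

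The transcripts of complex III did not move as 1 block between the genotypes. In the edgeR fit of all genes, 6 of the 10 were higher in the labelled knockouts, Uqcr11, Uqcrq, Uqcr10, Uqcrc1, Uqcrfs1 and Cyc1, where 26.2% of all tested genes were called higher. Uqcrb and Uqcrc2 were lower, where 25.2% of all tested genes were called lower, and Uqcrh and Cycs did not pass the test. The median log2 fold change (labelled knockout over wild type throughout) was 0.51 over these genes and -0.0059 over all tested genes. Together 8 of the 10 were called, against 51.4% of all tested genes. Read counts relative to TMM-scaled library size (CPM) did not overlap between the groups for 7 of the 10 genes, against 41.6% of all tested genes. In the corrected fit 4 were higher (18.6% of all genes in that fit) and 2 lower (19.5%), and the median was 0.13. Those 6 calls stand against 38.0% of all genes in that fit, and corrected CPM did not overlap for 6 of the 10, against 31.6% of all genes. Uqcrfs1, Uqcrq and Uqcr11 were called higher in both fits and Uqcrb and Uqcrc2 lower in both, where 13.0% and 13.6% of all genes were called higher and lower in both. Uqcrc1, Uqcr10 and Cyc1 were called only without the correction and Cycs only with it, and Uqcrh in neither. Of all 12542 genes in both fits, 3084 lost their call with the correction, 1398 gained one and 4689 were called in neither.

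**Figure D1:**
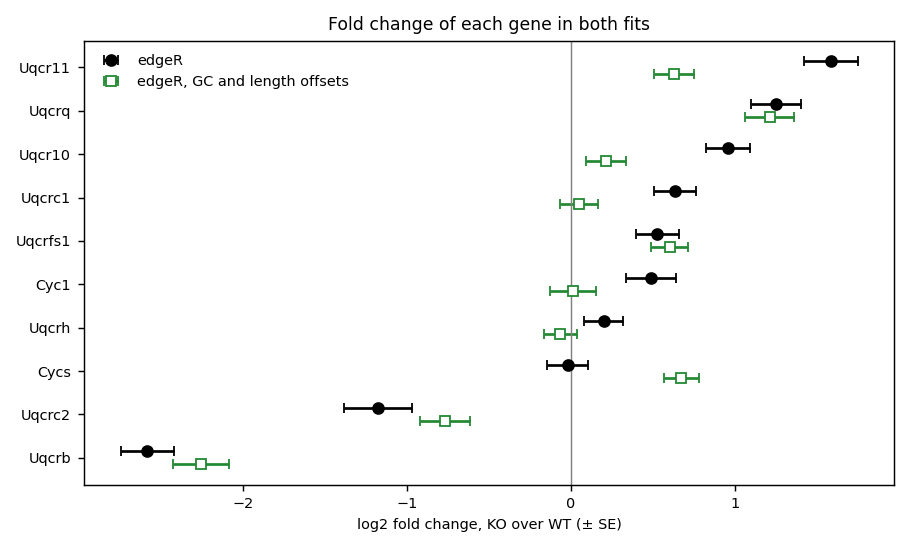
Log2 fold change of each gene, labelled knockout over wild type, with its standard error, from edgeR on the counts (filled circles) and from edgeR with GC and length offsets (open squares). Uqcrb lies at -2.58 and -2.25. With the offsets Uqcrc1, Cyc1 and Uqcrh lie near 0, Uqcr10 lies at 0.21 and Cycs at 0.67.

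Uqcrb and Uqcrq encode small subunits that join cytochrome b in the first steps of assembly, and they moved in opposite directions. Uqcrb (chr13:66900617-66905378, minus strand) stood at 217, 344, 341, 237 and 281 CPM in wild-type hearts 1 to 5 and at 46.0, 47.1, 43.4 and 52.5 CPM in labelled knockouts 1 to 4. The lowest wild-type heart was far above the highest labelled knockout, and the labelled knockouts lay close together. Uqcrb fell by 2.58 ± 0.16 (SE) on the log2 scale, or 5.99-fold (edgeR adjusted p = 5.9e-07), and by 2.25 in the corrected fit (adjusted p = 4.4e-06). Of all tested genes, 0.435% had a fold change at or below that of Uqcrb. In fragments per kilobase, scaled to depth (FPKM), the Uqcrb level was 752 ± 38.0 (SD, n = 5) in wild type and 191 ± 11.5 (SD, n = 4) in the labelled knockouts. In bulk tissue, fewer cells that express a gene and less of its RNA per cell cannot be told apart.

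Uqcrq (chr11:53427922-53430831, minus strand) stood at 158, 128, 106, 91.7 and 132 CPM in the wild-type hearts and at 326, 291, 253 and 303 CPM in the labelled knockouts. All 4 labelled knockouts were above all 5 wild-type hearts. Uqcrq rose 2.38-fold (edgeR log2 fold change 1.25 ± 0.15, adjusted p = 2.2e-05), and the corrected fit gave a like value (1.21, adjusted p = 5.5e-05). Its transcript has a GC content of 50.2%, near the middle of the tested genes (percentile 48.9), taken from its longest coding transcript of 1521 bases. The ratio of counts to FPKM implies a length of about 541 bases in the authors' values, nearer to an annotated transcript of 504 bases with a GC content of 48.4%. With offsets taken throughout from the transcript nearest to the length that FPKM imply, an alternative chosen after seeing the data, Uqcrq stood at 1.16 (adjusted p = 8.5e-05). The other 9 genes kept the same transcript.

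Parts of some transcripts recur elsewhere in the annotation, where the counting may have split or dropped reads. Of the 50-base windows of the Uqcrb transcript, 43.4% also occur in transcripts of 5 other genes, 4 of them processed pseudogenes, which are copies made from mRNA. The share was 28.5% for Cycs, whose windows recur in 76 other genes, 24.8% for Uqcrc2, 10.9% for Uqcr11 and 7.83% for Uqcrh. Uqcrc1, Uqcrfs1, Uqcrq, Uqcr10 and Cyc1 had no such window. The windows of Uqcrc2 are shared with Pdzd9, which overlaps it on the opposite strand. Without strand, reads of the 2 genes from that shared part cannot be told apart. Gm10767 and the pseudogene Gm12854 also lie on the opposite strand at the loci of Uqcrb and Uqcrh, but share at most 1 such window with them.

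The core proteins, encoded by Uqcrc1 and Uqcrc2, sit side by side in the complex and are related to the peptidase that trims imported proteins. Uqcrc2 (chr7:120635176-120659524, plus strand) stood at 479, 463, 471, 560 and 497 CPM in wild type and at 347, 190, 203 and 136 CPM in the labelled knockouts. The groups did not overlap, and the labelled knockouts spread widely, with a coefficient of variation of 41.2% against 7.91% in wild type. Uqcrc2 fell by 1.17 ± 0.21 on the log2 scale, or 2.26-fold (edgeR adjusted p = 3.3e-04), and by 0.77 in the corrected fit (adjusted p = 0.0016).

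Uqcrc1 (chr9:108936633-108949623, plus strand) stood at 795, 597, 560, 657 and 715 CPM in wild type and at 1024, 1086, 1027 and 994 CPM in the labelled knockouts, again with no overlap. Uqcrc1 rose 1.55-fold (edgeR log2 fold change 0.63 ± 0.13, adjusted p = 8.6e-04). The corrected log2 fold change was 0.050 (adjusted p = 0.766), and the corrected levels overlapped. Its transcript has a GC content of 57.5%.

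Among the subunits that carry redox centres, mt-Cytb, encoding cytochrome b (chrM:14145-15288, plus strand), moved the most. It stood at 37475, 97733, 83307, 41713 and 74165 CPM in wild type and at 5083, 9721, 8558 and 11630 CPM in the labelled knockouts. Each wild-type heart was above each labelled knockout, and wild-type hearts 1 and 4 lay well below the other wild-type hearts. The transcript fell by 2.93 ± 0.32 on the log2 scale (edgeR adjusted p = 1.0e-05) and by 2.21 in the corrected fit (adjusted p = 2.0e-04).

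Uqcrfs1, encoding the Rieske iron-sulfur protein (chr13:30540308-30545362, minus strand), stood at 141, 100.2, 118, 127 and 115 CPM in wild type and at 212, 158, 157 and 168 CPM in the labelled knockouts. The groups did not overlap, and labelled knockout 1 was the highest heart. Uqcrfs1 rose 1.44-fold (edgeR log2 fold change 0.53 ± 0.13, adjusted p = 0.0041), and its corrected log2 fold change was 0.60 (adjusted p = 0.0010).

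Cyc1, encoding cytochrome c1, which passes electrons on to cytochrome c (chr15:76343523-76346260, plus strand), stood at 428, 293, 257, 409 and 305 CPM in wild type and at 486, 499, 496 and 423 CPM in the labelled knockouts. Wild-type heart 1 was above labelled knockout 4, so the groups overlapped. Cyc1 passed the test as higher (edgeR log2 fold change 0.49 ± 0.15, adjusted p = 0.015). Without the 2 shallow wild-type hearts it did not (0.32, adjusted p = 0.093), which leaves 5 genes called higher, nor did it in the corrected fit (0.013, adjusted p = 0.955). Without those 2 hearts 5827 of all genes were called in either direction, against 6503 with all hearts.

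Of the remaining small subunits, Uqcr11 (chr10:80402997-80406830, minus strand), which encodes a small membrane-spanning protein, had the largest rise in the edgeR fit. It stood at 179, 110.3, 111, 101 and 143 CPM in wild type and at 357, 360, 389 and 447 CPM in the labelled knockouts, with no overlap. Uqcr11 rose 2.999-fold (edgeR log2 fold change 1.58 ± 0.16, adjusted p = 7.7e-06) and 1.55-fold in the corrected fit (0.63, adjusted p = 0.0012).

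Uqcr10 (chr11:4701973-4704342, minus strand), another small membrane subunit, stood at 183, 133, 125, 122 and 146 CPM in wild type and at 287, 281, 291 and 248 CPM in the labelled knockouts. All labelled knockouts were higher than all wild-type hearts. Uqcr10 rose 1.95-fold (edgeR log2 fold change 0.96 ± 0.14, adjusted p = 6.1e-05). In the corrected fit it did not pass (0.21, adjusted p = 0.181), and the groups overlapped.

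Uqcrh, encoding the acidic hinge protein that sits beside cytochrome c1 (chr4:116066965-116075071, minus strand), stood at 298, 325, 318, 365 and 345 CPM in wild type and at 388, 419, 382 and 327 CPM in the labelled knockouts. The groups overlapped because labelled knockout 4 lay within the wild-type range. The log2 fold change was 0.20 ± 0.12 (edgeR adjusted p = 0.171) and -0.064 in the corrected fit (adjusted p = 0.651).

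Cycs, encoding the somatic form of cytochrome c, the soluble carrier between complexes III and IV (chr6:50562563-50566538, minus strand), stood at 256, 263, 211, 259 and 233 CPM in wild type. The labelled knockouts stood at 285, 236, 237 and 207 CPM, across the same range. Its log2 fold change was -0.019 ± 0.13 (edgeR adjusted p = 0.909). After correction, CPM in the labelled knockouts lay between 310 and 331 and in wild type between 165 and 224, and the log2 fold change became 0.67 (adjusted p = 2.9e-04). The Cycs transcript has the lowest GC content and the greatest length of these genes, and the correction moved it upward by more than any of the others. With offsets from GC content alone its log2 fold change was 0.66 (adjusted p = 3.5e-04).

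**Figure D2:**
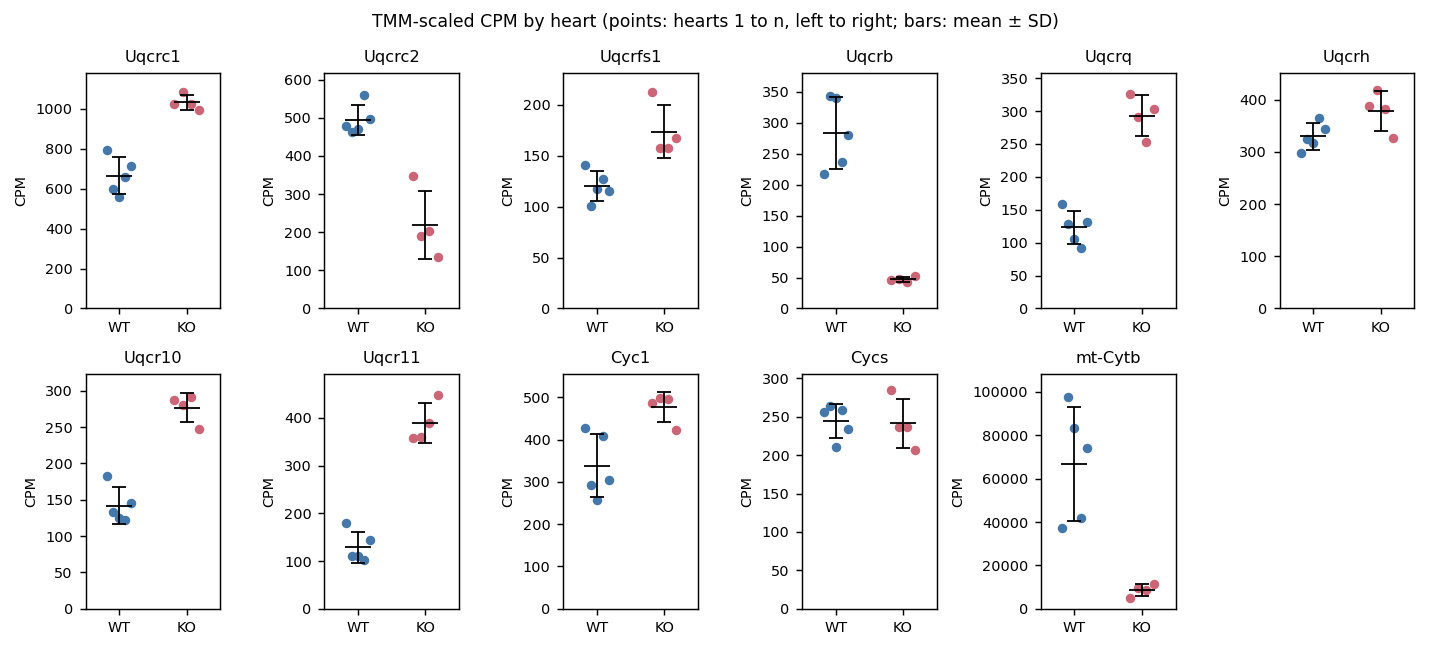
TMM-scaled CPM of each gene and of mt-Cytb in each heart, with 1 point per heart in the order of the labels' numbers and bars for mean ± SD (5 WT, wild type, and 4 KO, labelled knockout). The axes start at 0 and differ between panels. Uqcrb and mt-Cytb separate downward, Uqcrq, Uqcr10 and Uqcr11 separate upward, and Cycs overlaps.

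The 250 bases before the annotated start of Cycs, read from RefSeq on GRCm38.p6, are printed because this promoter is a textbook example of control by nuclear respiratory factor 1 (NRF1) and CREB. Start sequences of 6 of the 10 genes were matched by symbol: Uqcrh, Cycs, Uqcrc1, Uqcr11, Uqcr10 and Uqcrfs1. The sequence lies at chr6:50566570-50566819 on the minus strand and runs 5′ to 3′, with capitals on the CREB motif TGACGTCA and on GCATGCGC, a form of the NRF1 core chosen after the sequences were seen.
Cycs: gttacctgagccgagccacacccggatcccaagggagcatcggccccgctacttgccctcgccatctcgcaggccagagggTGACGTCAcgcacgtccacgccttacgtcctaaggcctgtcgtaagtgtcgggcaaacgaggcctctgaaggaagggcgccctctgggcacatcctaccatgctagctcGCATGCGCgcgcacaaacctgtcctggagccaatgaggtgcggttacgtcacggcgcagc
Counted from the RefSeq start, the CREB motif begins at base -169 in Cycs and at base -29 in Uqcrfs1. Of all 32851 promoters of this length, 1.55% hold it on either strand. The GENCODE locus of Uqcrfs1 given above starts further upstream, at chr13:30545362, so that its CREB motif lies within that locus. GCATGCGC, at base -60 of Cycs, was in 2.26% of all promoters. CCGGAAG, a motif of the GABP (NRF2) family, was found in Uqcrh and Uqcr11 and in 6.91% of all promoters. The longer palindromic NRF1 motif (3.74% of all promoters) and the ERR motif TCAAGGTCA (0.387%) were in none of the 6 windows. In the edgeR fit Uqcrfs1 and Uqcr11, each with a match, were called higher, as were Uqcrc1 and Uqcr10, which have none. Cycs and Uqcrh, with matches, were not called there, and Cycs was called higher in the corrected fit. A match describes these letters only, and no binding was measured.

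The order of the fold changes followed GC content in part. Across 12542 tested genes with a GC value, which are not independent replicates, log2 fold change and GC content had a Spearman rho of 0.61. The median was -0.59 in the lowest quartile of GC content (below 45.7%) and 0.59 in the highest (above 55.0%). Cycs, Uqcrb and Uqcrc2 belong to the lowest quartile and Uqcr10, Cyc1, Uqcrc1 and Uqcr11 to the highest. The offsets took between 0.48 and 0.95 off the log2 fold changes of the latter 4 genes and the amounts taken off Cycs, Uqcrb and Uqcrc2 were -0.69, -0.33 and -0.41, which moved those genes upward. Of the 3 genes in between, Uqcrq and Uqcrfs1 (50.2% and 48.6%) moved by less than 0.1, but Uqcrh (49.9%) lost 0.26. Length contributes as well: with offsets from GC content alone, chosen after seeing the data, Uqcrh stood at 0.23 and Uqcr10 kept its call (0.55, edgeR adjusted p = 0.0040). In that fit 5 of the 10 were higher and 2 lower, where 4732 of all genes were called in either direction.

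**Figure D3:**
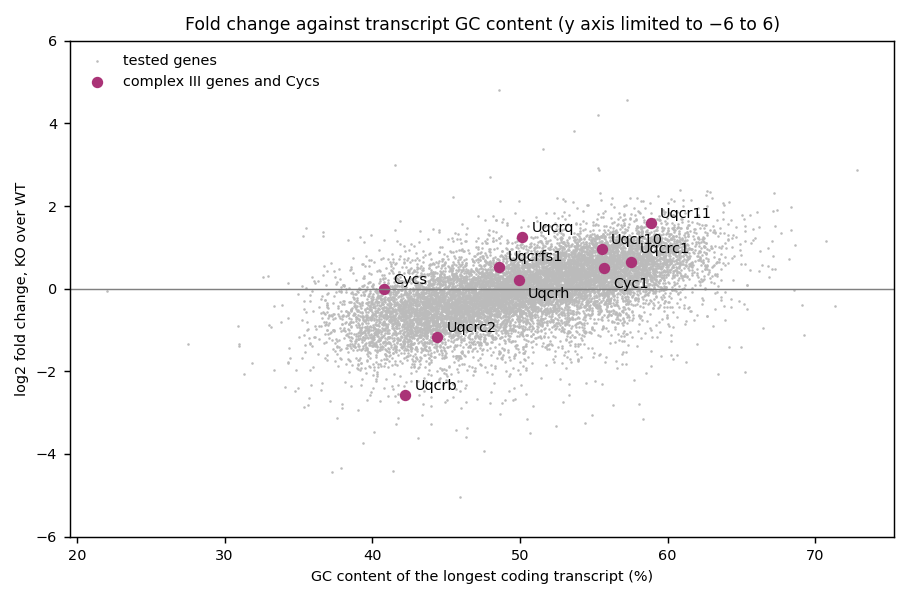
Log2 fold change of labelled knockout over wild type (y axis, edgeR, cut off above and below at the limits shown) against GC content of the transcript in percent (x axis), with tested genes as grey points and the complex III genes and Cycs as labelled points. The cloud rises from left to right, Uqcrb lies near its lower edge and Uqcrq near its upper edge.

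Levels between genes were compared per length, as shares of the summed FPKM of the 9 nuclear-encoded subunits within a heart, a measure that does not depend on scaling between hearts but does carry their GC trends. Uqcrh and Uqcrb led in wild type with 20.7% ± 2.44 and 20.4% ± 4.72 (SD, n = 5), and their order changed from heart to heart (Uqcrh was higher in 3 of 5). Uqcr10 (12.7%), Uqcr11 (11.8%), Uqcrc1 (9.74%), Uqcrq (8.85%), Cyc1 (7.28%) and Uqcrc2 (6.31%) followed. From Uqcrb down to Cyc1 each was above the next in 4 of 5 hearts, so that no such pair of neighbours was fully separated. The Rieske transcript Uqcrfs1 was last in every wild-type heart at 2.31% ± 0.260.

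In the labelled knockouts Uqcr11 was first in each of the 4 hearts with 25.5% ± 3.13 (SD, n = 4). Uqcr10 (17.7%), Uqcrh (16.8%) and Uqcrq (15.1%) followed, each above the next in 3 of 4 hearts for the first 2 steps, and all 3 were above Uqcrc1 (10.8%) and Cyc1 (7.31%) in each heart. Uqcrb went from a leading place to 2.40% ± 0.215, with 2.29, 2.38, 2.23 and 2.71% in hearts 1 to 4 against 14.3, 24.8, 25.5, 17.9 and 19.5% in the wild-type hearts. It then lay level with Uqcrfs1 (2.38% ± 0.320) and Uqcrc2 (1.98% ± 0.776), whose ranges overlapped. The shares of Uqcrh, Uqcrc1, Cyc1 and Uqcrfs1 overlapped between the genotypes, and those of the other 5 subunits did not. Shares sum to the whole, so that a lower share of Uqcrb raises those of the others.

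**Figure D4:**
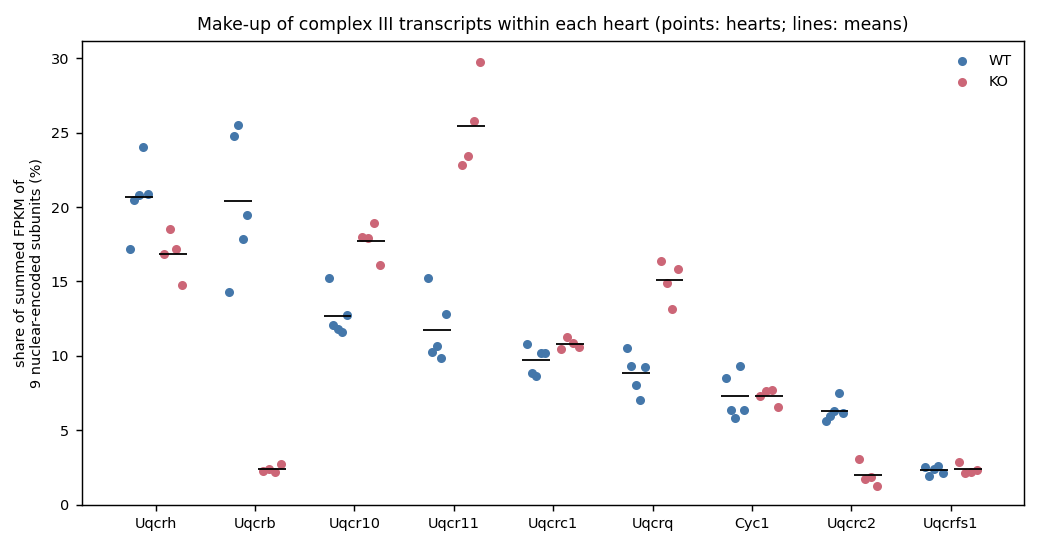
Share of each gene in the summed FPKM of the 9 nuclear-encoded complex III subunits, in percent, with 1 point per heart and lines at group means (WT, wild type; KO, labelled knockout), ordered by the wild-type mean. Uqcrb drops from a mean of 20.4% to 2.40%, and Uqcr11 goes from 11.8% to 25.5%.

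Ratios of read counts within a heart were tested for 4 pairs of partners by two-sided exact permutation over all 126 splits of the hearts, with Benjamini-Hochberg adjustment over the 4 ratios. The smallest p that these splits allow is 0.0079. Uqcrb to Uqcrq was 1.37, 2.69, 3.203, 2.58 and 2.13 in the wild-type hearts and 0.141, 0.162, 0.172 and 0.173 in the labelled knockouts. Uqcrb reads outnumbered Uqcrq reads in every wild-type heart and in none of the labelled knockouts, a 14.3-fold lower mean ratio (log2 difference -3.84, exact p = 0.0079, adjusted p = 0.016). Corrected counts gave a difference of -3.48 (exact p = 0.0079). CPM of Uqcrb and of Uqcrq had each separated the groups, in opposite directions, before and after correction. Their ratio therefore had to reach the smallest p both times, which adds no support beyond those levels.

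The ratio of the core proteins, Uqcrc1 to Uqcrc2, was 1.66, 1.29, 1.19, 1.17 and 1.44 in wild type and 2.95, 5.71, 5.06 and 7.33 in the labelled knockouts. The groups did not overlap, and labelled knockout 1 lay nearest to wild type. The log2 difference was 1.90 (exact p = 0.0079, adjusted p = 0.016) and 0.85 with corrected counts (exact p = 0.0079). Without correction this p was fixed too, because CPM of Uqcrc1 and of Uqcrc2 had separated the groups in opposite directions. With correction it was not, because corrected levels of Uqcrc1 overlapped.

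Uqcrb and mt-Cytb, partners in the first assembly intermediate, both fell, and their ratio did not pass the test. Its log2 values were -7.43, -8.15, -7.93, -7.46 and -8.04 in wild type and -6.79, -7.69, -7.62 and -7.79 in the labelled knockouts, with overlap. The log2 difference was 0.33 (exact p = 0.262) and -0.018 with corrected counts (exact p = 0.984). The difference of 0.33 was smaller than the group SDs of 0.34 and 0.46.

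The ratio of Cycs to Cyc1 passed the test in opposite directions without and with the correction. It was 0.597, 0.898, 0.821, 0.633 and 0.764 in wild type and 0.586, 0.473, 0.477 and 0.490 in the labelled knockouts, which all lay below wild type, labelled knockout 1 narrowly. The log2 difference was -0.54 (exact p = 0.016, adjusted p = 0.021) in the counts and 0.66 with corrected counts (exact p = 0.0079, adjusted p = 0.011). Cyc1 and Cycs differ in GC content, at 55.7% and 40.8%.

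**Figure D5:**
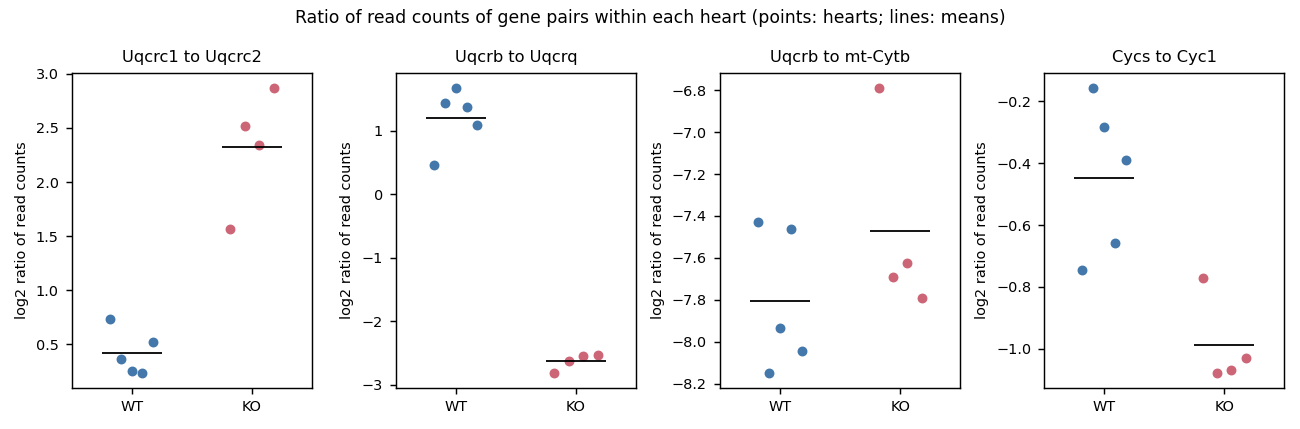
Log2 ratio of the read counts of 4 gene pairs within each heart, with 1 point per heart and lines at group means (WT, wild type; KO, labelled knockout). The axes differ between panels and do not start at 0. The Uqcrb to Uqcrq and Uqcrc1 to Uqcrc2 panels show separated groups, and the Uqcrb to mt-Cytb panel shows overlapping groups.

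FPKM carried the same information on another scale. For the 10 genes in 9 hearts, FPKM departed from the counts, after 1 factor per gene and 1 per heart, by at most 0.363%, so FPKM are no independent measurement. The median log2 fold change of all genes was 0.44 in FPKM, and changes are therefore given relative to each heart's median. As deposited, FPKM did not overlap between the groups for 8 of the 10, Uqcrh among them, against 45.6% of all genes. After centring the number was 8, against 44.8%, and Uqcrh and Cycs overlapped. On the centred scale limma called 6 of the 10 higher (25.4% of all genes) and Uqcrb and Uqcrc2 lower (28.4% of all genes), the latter with -1.15 (adjusted p = 0.0026). Without centring, 8 were called higher (47.2% of all genes) and Uqcrb alone lower (6.09% of all genes), and Uqcrc2 had -0.65 (adjusted p = 0.087). Uqcrc2 passed as lower there once labelled knockout 1 was left out (-0.93, adjusted p = 0.015). Cycs was among the 8 (0.56, adjusted p = 0.049) but not after centring (0.067, adjusted p = 0.673).

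Genes that assemble complex III and mature cytochrome c, or that feed electrons into ubiquinone, were read from a list of 29, of which 26 were in the count table and 25 passed the filter. In the edgeR fit 10 were called higher and 6 lower (26.2% and 25.2% of all tested genes), with a median log2 fold change of 0.072. In the corrected fit the numbers were 6 and 5 (18.6% and 19.5% of all genes), and 6 were higher and 3 lower in both fits (13.0% and 13.6%). Uqcc2, an assembly factor for cytochrome b, was called in opposite directions, at 0.53 (adjusted p = 0.0021) and at -0.42 (adjusted p = 0.0034). Without labelled knockout 4, 3 were called lower in place of 6.

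Among 14 assembly genes, 5 were higher and 4 lower in the edgeR fit (26.2% and 25.2% of all tested genes), and 2 higher and 5 lower in the corrected fit (18.6% and 19.5%). Uqcc3, an early assembly factor, rose from 10.6 ± 0.738 CPM (SD, n = 5) to 21.9 ± 3.33 CPM (SD, n = 4), with an edgeR log2 fold change of 1.05 (adjusted p = 5.2e-05). Chchd4, an import receptor of the intermembrane space, rose from 8.18 ± 1.67 to 16.2 ± 1.10 CPM (0.94, adjusted p = 2.5e-04). Lyrm7, a chaperone of the Rieske protein, fell from 18.2 ± 1.82 to 8.60 ± 2.68 CPM (-1.08, adjusted p = 3.3e-04). The directions of these 3 were the same in the corrected fit, at 0.67, 1.29 and -0.61, and each passed there. Hccs, which attaches haem to cytochromes c and c1, had -0.35 (edgeR adjusted p = 0.069) and 0.25 in the corrected fit (adjusted p = 0.13). Higd2a, known for roles in supercomplex assembly, had -0.23 (adjusted p = 0.12), and in the corrected fit it passed as lower (-0.75, adjusted p = 1.3e-04).

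Of 11 genes for electron donors, 5 were higher and 2 lower in the edgeR fit (26.2% and 25.2% of all tested genes). Etfb, a subunit of the electron transfer flavoprotein that serves fatty acid oxidation, rose from 193 ± 31.7 to 619 ± 116 CPM, with an edgeR log2 fold change of 1.68 (adjusted p = 4.1e-06). Prodh, proline dehydrogenase, rose from 11.7 ± 3.09 to 26.4 ± 3.10 CPM (1.13, adjusted p = 1.4e-04). Sdhd, a membrane anchor of complex II, rose from 109.9 ± 27.2 to 214 ± 15.2 CPM (0.95, adjusted p = 2.3e-04). In the corrected fit these stood at 0.97, 0.59 and 0.94 and each passed. There 4 of the 11 were called higher (18.6% of all genes) and none lower (19.5%). Other subunits of the same proteins did not all rise in the edgeR fit. Etfa had -0.086 (adjusted p = 0.69), and of complex II Sdha had -0.088 (adjusted p = 0.58). Sdhb was called higher (0.58, adjusted p = 0.0011) and Sdhc lower (-0.32, adjusted p = 0.04995). In the corrected fit Etfa, Sdha, Sdhb and Sdhc did not pass.

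The genes whose log2 CPM over the 9 hearts was most like that of Uqcrb, among 6850 tested genes whose mean CPM reached 10, were Pigu (Pearson r = 0.997), mt-Co2 (ENSMUSG00000064354, r = 0.995) and Gatc (r = 0.993). All 3 fell, with log2 fold changes of -1.93, -2.36 and -2.06. Those most like Uqcr11 were Rpl8 (r = 0.998), Rps21 (r = 0.997) and Atp9a (r = 0.996), which rose, with log2 fold changes of 2.12, 2.19 and 1.42. In the corrected fit Pigu, mt-Co2 and Gatc stood at -1.89, -1.77 and -2.01, and Rpl8, Rps21 and Atp9a at 1.38, 1.66 and 0.87. These hearts fall into 2 groups whose GC trends differ, so the correlations describe the difference between genotypes as much as any likeness within them.

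The labelled tissue was checked against markers. All 8 ventricular cardiomyocyte markers passed the filter, and their summed level was 56990 to 63220 CPM in wild type and 72840 to 82450 CPM in the labelled knockouts, where 3 of the 8 were called higher and 1 lower. Over all marker lists 12 of 31 tested genes were called higher and 6 lower, against 26.2% and 25.2% of all tested genes. Summed levels of 5 endothelial markers were 667 to 806 and 572 to 685 CPM, and those of 5 fibroblast markers 509 to 654 and 561 to 1030 CPM, with 1 endothelial and 3 fibroblast markers called higher and 2 and 1 lower. Those of 5 smooth muscle and pericyte markers were 496 to 717 and 612 to 852 CPM, and those of 5 leukocyte markers 69.8 to 90.0 and 83.2 to 114 CPM, with 1 and 2 called higher and 1 and 1 lower. The 4 atrial markers summed to 23.7 to 43.4 and 134 to 478 CPM, and Myl7 and Sln among them did not pass the filter. Of the 2 that were tested, Myl4 and Nppa, 1 was called higher and 0 lower. Skeletal muscle markers summed to 0.592 to 2.09 and 2.22 to 3.13 CPM, and adipocyte markers to at most 1.73 CPM. Only 1 skeletal muscle marker was tested, and it was called higher, while no adipocyte marker passed the filter. Of the 3 erythroid markers, the haemoglobin genes Hba-a1 and Hbb-b1 were at 0 in every heart. The remaining marker, Alas2, was detected at 10.7 to 20.5 CPM in wild type and 7.87 to 19.4 CPM in the labelled knockouts, and was not called. Why the haemoglobin rows were at 0 was not tested, so they do not show that erythroid RNA was absent. The part of these differences in the values of the complex III genes was not tested.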

How the data were processed

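Polyadenylated RNA of 9 hearts was measured, 5 wild type and 4 labelled as Parkin knockouts, and groups were taken from the sample titles. The authors deposited raw read counts per gene and, in a second table, FPKM values. The submitters' processing notes name build mm10 and, without roles, HTSeq, Cufflinks 2.1, TopHat2 2.0.10, Bowtie2, TopHat, edgeR and DESeq. For the annotation, the strand setting and the treatment of reads that map to several places, nothing is given in the sources used here. The genes and lists were chosen with earlier results of these data known, and the targeted gene is not reported here.

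Counts were tested with edgeR 4.0.16 in R 4.3.3 by quasi-likelihood F tests, with TMM factors, edgeR's filterByExpr (minimum count 10, minimum total 15) and Benjamini-Hochberg adjustment over all tested genes at 0.05. The corrected fit used offsets from lowess curves (span 0.3) of each heart's deviation on the GC content and then the length of the longest coding transcript in GENCODE. FPKM were tested with limma 3.58.1 (trend) on log2(FPKM + 1) where a gene's mean reached 0.5, a scale that understates changes of low genes. DESeq2 1.42.0 and other normalisations, filters and left-out hearts were tried as alternatives. Rows were matched to RefSeq and GENCODE names, 21751 by symbol, 1276 by synonym and 37 by Ensembl identifier, and 393 were not matched. Of the pathway list, Uqcc4, Uqcc5 and Uqcc6 were not matched, and Chdh did not pass the filter. All 10 genes and mt-Cytb were named whatever their values. From the pathway list the rule took the 6 called genes with the smallest p and 2 not called, and it took the 3 genes most like the largest fall and the largest rise. Uqcc2, Etfa, Sdha, Sdhb and Sdhc were named after their values were seen. No 2 hearts of a group agreed within sampling noise. The procedures were run on simulated counts, without a GC trend and with the same GC slope in every heart of a group. No length trend was simulated, whereas these hearts have length trends and differ in GC slope within groups. The simulation therefore does not show how well the corrected fit works on these hearts.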

Additional observations from a re-analysis of the deposited data

Results flagged for a closer look

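In 4 of 52 sets of values from 1 group, 1 heart stood apart from the others of its group by a gap test that flags about 1 in 20 sets by chance. Labelled knockout 1 was that heart in 3 of them. Its FPKM of Uqcrfs1 was 248, and the other labelled knockouts lay between 171.7 and 172.5. Its log2 ratio of Uqcrb to mt-Cytb was -6.79, against -7.79 to -7.62 in the others, and without it the difference between genotypes was 0.10 in place of 0.33. Its log2 ratio of Cycs to Cyc1 was -0.77, against -1.08 to -1.03, and without it the difference was -0.61 in place of -0.54. Labelled knockout 1 also had the lowest share of mitochondrially encoded reads (10.04%) and the GC slope nearest to wild type (0.17) among the labelled knockouts, and the part of these in the values above was not tested. Wild-type heart 1 had 560 FPKM of Uqcrq as deposited, against 253 to 334 in the other wild-type hearts. In CPM its Uqcrq level was 158, against 91.7 to 132 in the others. That heart was the deepest library, with 20827699 reads, and had the lowest share of mitochondrially encoded reads in wild type (32.6%). The part of these in its Uqcrq value was not tested.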

How the results depend on the processing

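Of the 10 genes, Uqcrfs1, Uqcrq, Uqcr11, Uqcrb and Uqcrc2 kept direction and call in every alternative run on the counts. The settings were other normalisations (RLE, upper quartile), no filter or a mean of at least 1 CPM, DESeq2, mitochondrially encoded genes left out, the replicate block, the GC and length offsets, the 2 shallowest wild-type hearts left out, and each heart left out in turn. With offsets and without the 2 shallow hearts, a setting chosen after seeing the data, Uqcrc1 stood at -0.0537, Uqcrh at -0.0463, Cyc1 at -0.1346 and Cycs at 0.6125, with 4040 genes called in all and 5 pathway genes higher. With offsets alone, Uqcrh stood at -0.0642, Cycs at 0.6736 and the ratio of Uqcrb to mt-Cytb at -0.018. The ratio of Cycs to Cyc1 stood at 0.6559, and 6 pathway genes were higher. Without a filter on low counts Cycs stood at 0.0157. Under 2 settings chosen after seeing the data, Cycs stood at 0.689 with offsets from the transcript nearest to the length that FPKM imply and at 0.6608 with offsets from GC content alone, where 6 pathway genes were higher. With 1 heart left out at a time, all genes called ranged from 5594 to 6752 without offsets and from 3702 to 4710 with them. Pathway genes higher ranged from 9 to 10 and from 5 to 7, and lower from 3 to 6 and from 5 to 6. Without offsets Uqcrc1 ranged from 0.567 to 0.702, Uqcrh from 0.1509 to 0.268, Cyc1 from 0.3944 to 0.583 and Cycs from -0.1081 to 0.0511. With offsets their ranges were -0.0012 to 0.1209, -0.1193 to -0.0142, -0.0652 to 0.0952 and 0.6107 to 0.7146, in that order. In FPKM, 2 genes were lower after centring, and 1 to 2 with a heart left out.

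The replicate numbers did not pair the hearts: deviations of same-numbered hearts correlated between -0.26 and 0.041. With the number as a block 5030 genes were called, and with the block and the offsets 3390, among them 5 pathway genes higher, with Uqcrh at -0.0457 and Cycs at 0.6656. Under sign flips over the 4 same-numbered pairs, which allow no p below 0.125, the log2 differences of the ratios were 1.9277 for Uqcrc1 to Uqcrc2, -3.8645 for Uqcrb to Uqcrq and -0.5262 for Cycs to Cyc1, each with an adjusted p of 0.167. The causes of these changes were not tested. Depth limits the 2 shallow wild-type hearts most, where Uqcrfs1 had 289 and 397 reads.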

Other observations

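The level of mt-Cytb per length was set against that of Cyc1, the nuclear-encoded cytochrome of the same complex, a comparison chosen after the values were seen. The ratio of mt-Cytb to Cyc1 in FPKM was 92.2, 351, 341, 107 and 256 in wild-type hearts 1 to 5. In labelled knockouts 1 to 4 it was 11.01, 20.5, 18.2 and 28.9. The wild-type hearts spread over a wide range, with hearts 1 and 4 lowest, and no labelled knockout reached it. The ratio is not corrected for GC trends, and the 2 transcripts have GC contents of 39.1% and 55.7%. Log2 fold changes of mt-Cytb and Cyc1 were -2.93 and 0.49 in the edgeR fit and -2.21 and 0.013 in the corrected fit. All mitochondrially encoded genes together took 47.0% of reads in wild type and 13.3% in the labelled knockouts.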
